A study of Lentinus tigrinus with 27 samples.

Results

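The maturation of the cap was examined in the mushroom Lentinus tigrinus, strain RLP-9953-sp, by setting 3 libraries of the mature cap (FB_cap) against 3 of the young cap (YFB_cap), out of 27 polyA RNA libraries in the series. The 6 libraries were chosen by their titles alone. FB_cap came from fruiting bodies that measured 50 to 70 mm and whose cap had opened flat. YFB_cap came from younger ones with a stipe of 30 to 40 mm, whose cap was still an initial of at most 5 mm and whose gills could only just be seen. Both grew on aspen sawdust with wheat bran. The cultures spent their first 21 days in darkness at 30 °C and were then moved to 25 °C under a daily cycle with equal spans, 12 h, of light and darkness. The other groups, also of 3 libraries each, were mature stipe (FB_stipe) and lamellae (FB_lamellae), young stipe (YFB_stipe), cap and stipe of the stage 2 primordium (P2_cap and P2_stipe), the stage 1 primordium (P1), which has no cap, and vegetative mycelium (VM). For VM the days in darkness, the temperatures and the light cycle are not recorded here. VM against P1 therefore cannot part stage from culture conditions. The series calls the replicates biological. The labels do not say whether they came from separate cultures or how gills were parted from the cap. In the main fit p-values rest on a spread between samples of a group that is shared over all 27 libraries. They do not rest on the 6 cap libraries alone.

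The cap of a gilled mushroom is built of hyphae and carries the gills, on whose surface basidia form the spores. The cap initial arises at the top of the primordium, and later growth rests largely on the enlargement of hyphal cells as the cap spreads and flattens. Growth of the stipe lifts the cap, and the mycelium below feeds both from the wood it decays. Gene identifiers were not paired with names or functions in the files, and none matched the gene table at hand. Roles of single genes are therefore not given, the cap label could not be checked with named markers, and only a few identifiers are printed, their bars written as _ here.

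Reads assigned to genes numbered 11429575, 15276560 and 20009780 in FB_cap replicates 1, 2 and 3, against 17045142, 17571910 and 23072976 in YFB_cap replicates 1, 2 and 3. The 10 most abundant genes took 9.1 to 11.9% of the reads in FB_cap and 5.2 to 6.7% in YFB_cap. The FB_cap libraries also differed more among themselves. CPM are TMM-scaled counts relative to library size. On the scale of log2(CPM + 1) the libraries had a median SD of 0.39 in FB_cap and 0.22 in YFB_cap (12707 genes). Across these genes, which are not independent replicates, FB_cap replicates 1 and 2 both correlated best with FB_lamellae replicate 2 (r = 0.944 and 0.943), which shared the flowcell of FB_cap replicate 1. Their correlation with each other was 0.919, while FB_cap replicate 1 reached 0.942 with YFB_cap replicate 1. FB_cap replicate 3 correlated best with FB_cap replicate 1 (0.939), but at 0.873 with FB_cap replicate 2. That was under its correlations with the YFB_cap libraries, 0.891 to 0.903. By this measure the mature caps were not set apart as a group. Sequencing flowcell was confounded with stage. FB_cap replicates 1, 2 and 3 were each on a flowcell without any YFB_cap library, so no value within a flowcell could be had. FB_cap replicate 2 shared its flowcell with VM replicates 1 and 2 and FB_lamellae replicate 1.

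More genes were called higher than lower in the mature cap, and more of those called higher were past 4-fold. Of 13569 genes tested, 1432 rose (10.6%) and 773 fell (5.7%) in FB_cap relative to YFB_cap, at an edgeR quasi-likelihood adjusted p under 0.05 and at least 2-fold. Together they made up 16.3% of the genes tested. By separation alone, with no fold or p, the balance ran the other way. All FB_cap libraries lay above all YFB_cap libraries in 2352 genes (17.3%) and below them in 2567 (18.9%). Among the called genes the groups did not overlap in 1119 of the 1432 that rose and 759 of the 773 that fell. Past 4-fold the balance of calls was wider, with 562 genes higher (4.14%) and 89 lower (0.656%). Those past 4-fold and lower numbered 175 without FB_cap replicate 3, and those higher 373 without FB_cap replicate 2, 333 without YFB_cap replicate 2 and 361 without YFB_cap replicate 3. The genes that rose were scarce in the young cap, at a median of 26.6 CPM in FB_cap and 5.84 CPM in YFB_cap. The genes that fell were abundant there, at a median of 22.2 CPM in FB_cap and 59.5 CPM in YFB_cap, while the median over all tested genes was 20.9 CPM in FB_cap and 18.5 CPM in YFB_cap. The risen genes took 17.4, 25.2 and 17.0% of all reads in FB_cap replicates 1, 2 and 3, against 6.0, 4.7 and 5.0% in YFB_cap replicates 1, 2 and 3. For the fallen genes the shares were 4.0, 2.2 and 3.8% in FB_cap and 10.1, 10.7 and 11.0% in YFB_cap. These levels and shares describe genes chosen by the same libraries and carry no test.

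The number of calls depended on the fit and on single libraries. It was 1143 without FB_cap replicate 2, and 1202 and 1158 without YFB_cap replicates 2 and 3. A fit of the 6 cap libraries alone called 566 genes. With flowcell as a covariate, which links the groups only through other tissues, 347 were called. In that fit 189 of the 1432 risen genes and 123 of the 773 fallen genes stayed called. The sign was kept in 1431 of the risen and 773 of the fallen genes. The same libraries had chosen these genes for large changes, so the kept sign is no independent test. Their median log2 fold changes were 1.39 for the risen and -1.21 for the fallen genes, against 1.75 and -1.37 without the covariate. Across the omission of each of the 6 cap libraries in turn, 423 of the risen and 235 of the fallen genes were called every time.

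**Figure D1:**
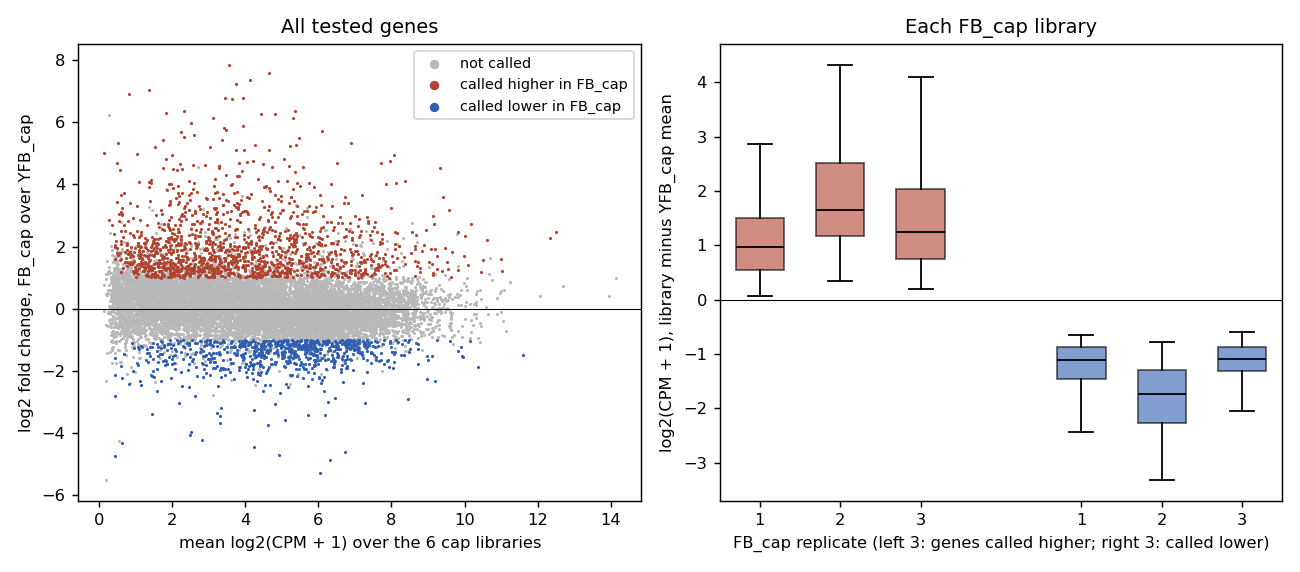
Left, log2 fold change of FB_cap over YFB_cap against mean log2(CPM + 1) for 13569 genes, with called genes coloured. Right, log2(CPM + 1) of each FB_cap library minus the YFB_cap mean over the 1432 genes called higher and the 773 called lower (box, quartiles; line, median; whiskers, 5th to 95th percentile). The medians of replicate 2 lie farthest from 0, at 1.66 and -1.73.

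The 4 genes described next have the widest gap between the nearest libraries of the 2 groups, among called genes of at least 20 CPM in the higher group. Groups that did not overlap were found in 36.3% of all tested genes, so the separation itself singles out none of them. Lenti6_1_615366, a gene model of 462 bases, had 1105, 2559 and 1228 CPM in FB_cap replicates 1, 2 and 3, against 85.7, 25.9 and 47.4 CPM in YFB_cap replicates 1, 2 and 3. The lowest mature cap stood far above the highest young cap. It rose by 4.94 ± 0.59 in log2 (SE, edgeR adjusted p = 4.22e-05). In the stage 2 cap it was also low, at 64.7 ± 18.2 CPM (SD, n = 3). In the stipe it was high at every stage, at 1135 ± 433 CPM in P2_stipe, 1538.5 ± 315 CPM in YFB_stipe and 1744 ± 148 CPM in FB_stipe (SD, n = 3 each). Both earlier caps lay under all 9 stipe libraries, while the mature caps lay among them or, for replicate 2, above them. P1 was high too, at 918 ± 159 CPM, as was FB_lamellae, at 906 ± 715 CPM (SD, n = 3 each). VM held 192 ± 104 CPM (SD, n = 3). A high level was therefore not particular to the stipe.

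Lenti6_1_648461, of 1625 bases, was highest in the mature cap and in part of the lamellae. It stood at 339, 557 and 501 CPM in FB_cap replicates 1, 2 and 3, against 26.2, 13.4 and 14.5 CPM in YFB_cap replicates 1, 2 and 3. All mature caps lay above all young caps, and the gene rose by 4.69 ± 0.72 in log2 (SE, edgeR adjusted p = 0.000512). FB_lamellae replicates 1 and 2 had 361 and 312 CPM, but FB_lamellae replicate 3 had 28.8 CPM. No stipe library exceeded 45.4 CPM, and VM held 113 ± 29.6 CPM (SD, n = 3). P2_cap replicates 1, 2 and 3 had 24.1, 71.1 and 86.1 CPM, so replicates 2 and 3 lay above every young cap.

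Lenti6_1_654896, of 1719 bases, was high only in the caps of the early stages among the 9 groups. It had 513, 252 and 494 CPM in P2_cap, 172, 182 and 94.6 CPM in YFB_cap and 6.04, 7.81 and 3.19 CPM in FB_cap, in each case for replicates 1, 2 and 3. Relative to YFB_cap the change in FB_cap was -4.72 ± 0.44 in log2 (SE, edgeR adjusted p = 2.65e-06). The stipe libraries held 5.32 to 9.76 CPM, near the 3.19 to 7.81 CPM of the mature cap.

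Lenti6_1_615061, of 348 bases, fell in the cap from a level shared by most earlier tissues. It had 9.15, 0.463 and 33.7 CPM in FB_cap replicates 1, 2 and 3, against 789, 475 and 441 CPM in YFB_cap replicates 1, 2 and 3. The mature caps spread widely but all lay under the young caps, with a change of -5.29 ± 1.34 in log2 (SE, edgeR adjusted p = 0.0094). It averaged 817 ± 693 CPM in P1, 1217 ± 159 CPM in P2_cap, 1237 ± 1486 CPM in P2_stipe, 1306 ± 846 CPM in YFB_stipe and 3026 ± 2116 CPM in FB_stipe (SD, n = 3 each). It was low in FB_lamellae, at 2.78 ± 3.19 CPM, and in VM, at 22.5 ± 22.8 CPM (SD, n = 3 each). This call was lost in the fit of the 6 cap libraries alone, at -5.27 in log2, and with flowcell as a covariate, at -3.94. Its adjusted p ran from 1.8e-05 to 0.0718 over 17 alternatives with edgeR, DESeq2 or limma. The calls of the other three genes held in all 17 alternatives, with edgeR, DESeq2 or limma adjusted p of at most 0.0228.

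**Figure D2:**
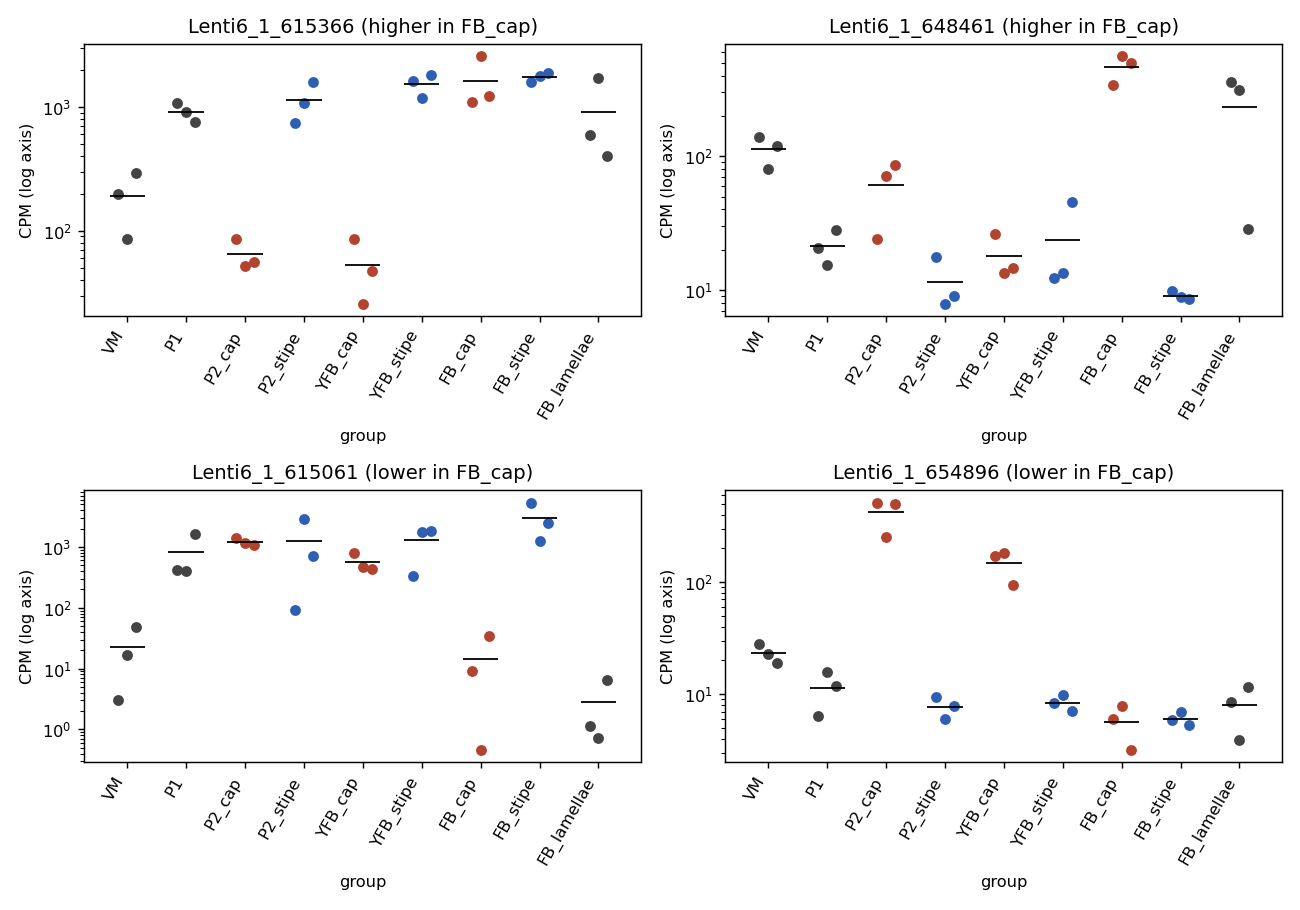
CPM on a log axis of the 4 named genes in the 9 groups, one point per library and a line at the group mean (red, caps; blue, stipes; grey, other groups). Lenti6_1_615366 and Lenti6_1_648461 lie above 300 CPM in every FB_cap library, and Lenti6_1_654896 lies under 10 CPM there.

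All 3 FB_cap libraries shared the direction of the change, but replicate 2 carried it furthest. Over the 1432 risen genes the median log2(CPM + 1) above the YFB_cap mean was 0.97, 1.66 and 1.25 in FB_cap replicates 1, 2 and 3. Of these genes 414 were at least 2-fold above that mean in every FB_cap library, against 440 of all 13569 tested genes, and 857 were highest in replicate 2. Over all tested genes replicates 1, 2 and 3 were highest in 3787, 5805 and 3977. Their quartiles there were -0.39 to 0.38, -0.53 to 0.70 and -0.40 to 0.46, so replicate 2 also stood furthest out over all genes. Over the 773 fallen genes the medians were -1.12, -1.73 and -1.09, in the same order, with 287 genes past 2-fold in every library and 561 lowest in replicate 2. Few risen genes went the other way, 52 in replicate 1, 29 in replicate 2 and 32 in replicate 3, and none of the fallen genes did. Since these libraries chose the genes, these values are a description.

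A view that does not use the library in question was also taken. Genes were called without one FB_cap library, and that library was then set against the mean of the 3 P2_cap libraries, which are not in that contrast, although they enter the shared estimate of the spread. Without replicates 1, 2 and 3 in turn, 1733, 784 and 1409 genes were called higher, and those of them also among the 13569 genes tested with all libraries are counted here. FB_cap replicate 2 was at least 2-fold above P2_cap in 441 of the 781 such genes (56.5%), against 13.3% of all tested genes. For FB_cap replicate 3 the count was 490 of 1406 genes (34.9%), against 11% of all tested genes. FB_cap replicate 1 passed 2-fold in 393 of 1723 genes (22.8%), against 7.43% of all tested genes, and lay under P2_cap in 492 of them. In the fallen direction replicate 2 was at least 2-fold below P2_cap in 230 of 359 genes (64.1%), replicate 1 in 228 of 856 (26.6%) and replicate 3 in 210 of 822 (25.5%). The shares of all tested genes were 11.4, 7.05 and 4.97% for replicates 2, 1 and 3. For the rises the libraries stood in the same order as above, but so did their shares of all tested genes. Each library was also scored on different genes, those for replicates 1 and 3 called with replicate 2 included. The percents therefore do not rank the libraries. Against P2_cap each library exceeded the share of all genes in both directions. With the P1 mean in place of P2_cap this held for the rises, at 14.4, 32.4 and 19.7% in replicates 1, 2 and 3, against 7.1, 9.74 and 7.98% of all tested genes. For the falls it held in replicate 2, at 22.3% against 9.65% of all tested genes. Replicate 1 stood at 7.48% against 9.96% of all tested genes, and replicate 3 at 5.47% against 5.29%, so relative to P1 the falls in these libraries were under or near the share of all genes.

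Genes that distinguished the stage 2 cap from the primordium without a cap moved back in the mature cap. The lists used here come from contrasts of other groups in the same fit, by the same call rule. Of 709 genes higher in P2_cap than in P1 (5.23% of those tested), 245 fell in FB_cap relative to YFB_cap (34.6%, against 5.7% of all tested genes) and 33 rose. Of 1196 genes lower in P2_cap than in P1 (8.81% of those tested), 384 rose (32.1%, against 10.6% of all tested genes) and 2 fell. The median log2 fold change was -0.72 in the first list and 0.78 in the second, beside 0.11 over all tested genes. Without FB_cap replicate 2, YFB_cap replicate 2 or YFB_cap replicate 3 the falls in the first list numbered 148, 162 and 160 and the rises in the second 244, 204 and 203. Each mature cap library shared both shifts. The medians of log2(CPM + 1) relative to the YFB_cap mean were -0.52, -0.68 and -0.67 for the first list and 0.35, 0.77 and 0.52 for the second in FB_cap replicates 1, 2 and 3. All 1905 genes of both lists were also placed on a scale on which the P1 mean is 0 and the P2_cap mean is 1. The median position was 0.47 ± 0.15 in FB_cap and 0.95 ± 0.10 in YFB_cap (SD, n = 3 each), with FB_cap libraries at 0.61, 0.31 and 0.48 and YFB_cap libraries at 0.84, 0.99 and 1.03. FB_cap and YFB_cap did not overlap. FB_lamellae at 0.65 ± 0.09 and FB_stipe at 0.61 ± 0.12 (SD, n = 3 each) also lay between P1 and P2_cap. A middle position is therefore not particular to the mature cap.

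Genes that distinguished cap from stipe at stage 2 also shifted in the cap, towards the stipe. Of 453 genes higher in P2_cap than in P2_stipe (3.34% of those tested), 123 fell in FB_cap (27.2%, against 5.7% of all tested genes) and 37 rose (8.17%, against 10.6%). Of 603 genes lower in P2_cap than in P2_stipe (4.44% of those tested), 181 rose (30%, against 10.6% of all tested genes) and 3 fell (0.498%, against 5.7%). Without YFB_cap replicate 2 the rises numbered 106. On a scale with P2_stipe at 0 and P2_cap at 1, over these 1056 genes, the 3 mature caps lay at 0.37, 0.37 and 0.35 and the 3 young caps at 0.76, 0.77 and 0.66. The later stipes stayed at the stipe end, at 0.02 ± 0.02 in FB_stipe and 0.01 ± 0.05 in YFB_stipe (SD, n = 3 each). FB_lamellae lay at 0.53 ± 0.08 (SD, n = 3), above all FB_cap libraries. By these genes the mature cap lay between stage 2 stipe and stage 2 cap, nearer to the stipe. Groups without a stipe or cap also lay low on this scale, VM at 0.28 ± 0.04 and P1 at 0.09 ± 0.05 (SD, n = 3 each), so a low position is not particular to stipe. The near equality of the 3 mature caps covers both lists together. Over the 453 genes higher in P2_cap the medians relative to the YFB_cap mean were -0.46, -0.23 and -0.45 in FB_cap replicates 1, 2 and 3. Those genes took 2.7, 4.1 and 2.1% of the reads in FB_cap, against 3.5, 3.2 and 2.9% in YFB_cap, so replicate 2 lay above every young cap in that share. The median log2 fold change of this list was -0.36 with all libraries and -0.53 without FB_cap replicate 2. In bulk tissue, fewer cells of a type and less RNA per cell cannot be told apart.

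**Figure D3:**
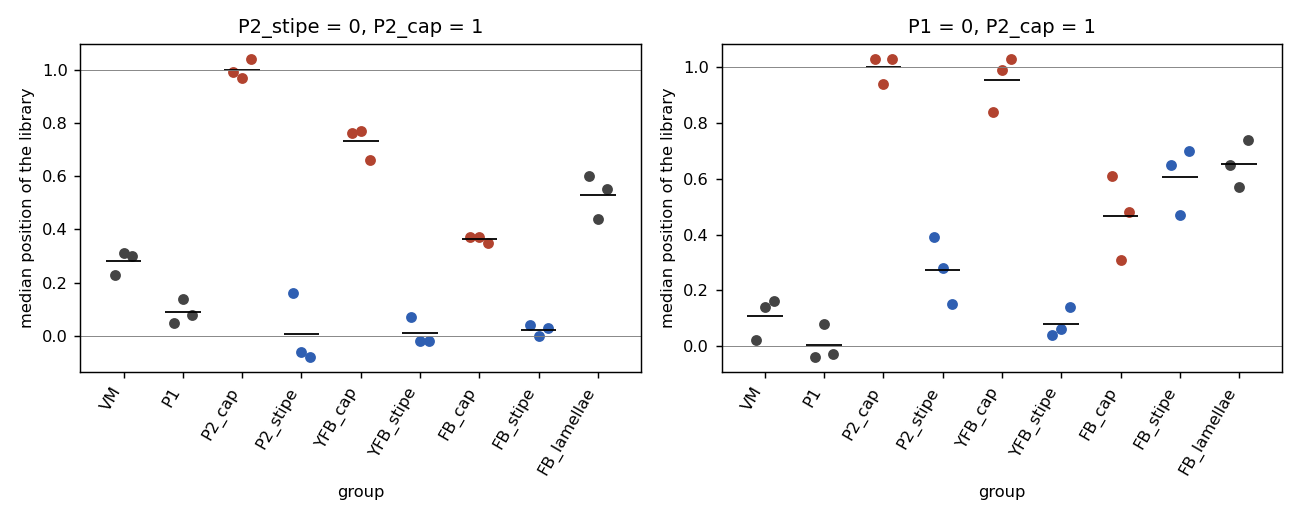
Median position of each library on 2 scales set by the stage 2 cap (1) and either the stage 2 stipe (0, left, 1056 genes) or the stage 1 primordium (0, right, 1905 genes), with a line at the group mean (red, caps; blue, stipes; grey, other groups). FB_cap lies at 0.35 to 0.37 on the left scale and 0.31 to 0.61 on the right, under all YFB_cap libraries on both.

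Genes higher in vegetative mycelium than in the primordium moved mostly upwards in the mature cap. Of 1097 genes higher in VM than in P1 (8.08% of those tested), 368 rose in FB_cap relative to YFB_cap (33.5%, against 10.6% of all tested genes) and 18 fell (1.64%, against 5.7%), with a median log2 fold change of 0.90. They took 4.5, 7.8 and 5.2% of the reads in FB_cap replicates 1, 2 and 3, against 2.9, 2.5 and 2.5% in YFB_cap replicates 1, 2 and 3. All mature caps exceeded all young caps, and replicate 2 was highest. The medians of log2(CPM + 1) above the YFB_cap mean were 0.33, 0.86 and 0.43 in FB_cap replicates 1, 2 and 3. Without YFB_cap replicates 2 and 3 in turn, 189 and 190 such genes rose. Without FB_cap replicate 2, 207 of 1187 rose at a median of 0.60, and without all 4 libraries of its flowcell, 147 of 757 rose at a median of 0.50. In that fit VM is replicate 3 alone, which is assumed to vary like the other groups. With flowcell as a covariate 44 of 624 rose and 4 fell, at a median of 0.64, where 206 of all 13569 genes were called higher and 141 lower. Of 937 genes lower in VM than in P1 (6.91% of those tested), 159 fell in FB_cap (17%, against 5.7% of all tested genes) and 28 rose (2.99%, against 10.6%). The falls numbered 69 without FB_cap replicate 2 and 97 without either YFB_cap replicate 2 or 3.

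Genes higher in the lamellae than in the stipe were raised most in FB_cap replicate 2. Of 1282 genes higher in FB_lamellae than in FB_stipe (9.45% of those tested), 400 rose in FB_cap (31.2%, against 10.6% of all tested genes) and 72 fell (5.62%, against 5.7%). The medians above the YFB_cap mean were 0.17, 0.99 and 0.35 in FB_cap replicates 1, 2 and 3. Their share of the reads was 8.2, 17.7 and 8.6% in FB_cap, against 6.8, 5.5 and 6.1% in YFB_cap, so replicate 2 stood far above the other mature caps. Without FB_cap replicate 2, 167 of 1377 such genes rose (median 0.37), and with flowcell as a covariate 24 of 390. Without YFB_cap replicates 2 and 3 in turn, 188 and 205 rose. What part lamella tissue in a cap sample has in these values was not tested. Of 861 genes lower in FB_lamellae than in FB_stipe (6.35% of those tested), 102 rose (11.8%) and 68 fell (7.9%), near the shares of all tested genes. The rises numbered 46 and 53 without YFB_cap replicates 2 and 3. Several lists share P1, P2_cap or FB_stipe libraries, so their counts are not independent of one another.

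**Figure D4:**
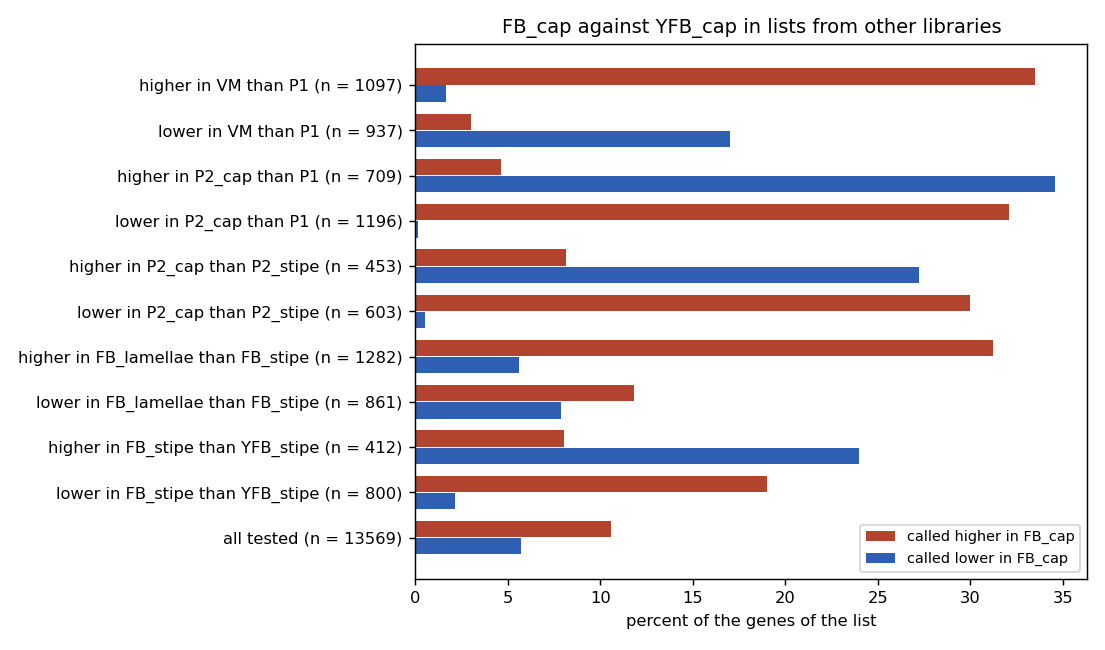
Percent of each list called higher (red) or lower (blue) in FB_cap than in YFB_cap, for 10 lists from contrasts of other groups and for all tested genes. Genes higher in P2_cap than in P1 were called lower in 34.6%, and genes higher in VM than in P1 were called higher in 33.5%.

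Outside the 2 groups compared, the risen and fallen genes lay on opposite sides in VM and P2_cap, but not in FB_lamellae. Relative to the mean of the 7 other groups, the risen genes were high in VM (median 0.61 in log2(CPM + 1)), near 0 in P1 (0.07), YFB_stipe (0.02) and FB_lamellae (0.05), and low in P2_cap (-0.50). The fallen genes were low in VM (-0.69), high in P2_cap (0.60) and at 0.15 in FB_lamellae. FB_lamellae was not uniform in this. For the risen genes its replicates 1 and 2 lay at 0.32 and 0.34 but replicate 3 at -0.64, close to the P2_cap libraries at -0.54 to -0.45. For the fallen genes FB_lamellae replicates 1, 2 and 3 lay at -0.10, -0.20 and 0.69. Gene length set the classes little apart, with medians of 1274 bases for the risen, 1365 for the fallen and 1307 for all tested genes. In the longest quartile of genes, of 1871 bases and more, 8.08% rose and 6.52% fell, against 11.1% and 4.8% in the shortest. No gene had at least 1 CPM in every FB_cap library and less than 0.1 CPM in every YFB_cap library, nor the reverse.

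Many genes changed differently in cap and stipe. The change from YFB to FB was tested between the tissues as a difference, (FB_cap minus YFB_cap) minus (FB_stipe minus YFB_stipe), and this exceeded 2-fold in 3703 genes (27.3%), 2195 positive (16.2%) and 1508 negative (11.1%), at an edgeR adjusted p under 0.05. Of these genes 1588 were also called in the cap alone, and 1428 were called in neither tissue alone. Among the 301 genes called in both tissues, 251 moved in opposite directions (83.4%), 152 up in the cap and down in the stipe and 99 the other way. Opposite signs were found in 63.4% of all tested genes. The 301 genes are 13.7% of those called in the cap and 24.8% of those called in the stipe.

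Among the 800 genes that fell in FB_stipe relative to YFB_stipe (5.9% of those tested), 152 rose in the cap (19%, against 10.6% of all tested genes) and 17 fell (2.12%, against 5.7%). Among the 412 that rose in FB_stipe (3.04% of those tested), 99 fell in the cap (24%, against 5.7% of all tested genes) and 33 rose (8.01%, against 10.6%). The rises in the first of these lists numbered 242, 89, 71 and 74 without FB_cap replicates 1 and 2 and YFB_cap replicates 2 and 3, and the falls in the second 38, 56 and 48 without FB_cap replicate 2 and YFB_cap replicates 2 and 3. The balance of falls over rises among the genes that rose in the stipe was not kept in every fit. With flowcell as a covariate 6 fell and 10 rose, and in the fit of the 6 cap libraries 14 fell and 18 rose. The difference was called in 1303 genes when flowcell was a covariate, 641 positive and 662 negative, of which 1187 were among the 3703. FB_stipe replicates 2 and 3 shared their flowcell with YFB_cap replicates 2 and 3 and YFB_stipe replicate 3, but with no FB_cap library. An effect of that flowcell would enter the cap and stipe changes with opposite signs. It cannot be fully told apart from opposite changes with stage. FB_stipe replicate 4 was alone on its flowcell. Replicate 4 had a position of 0.65 on the scale from P1 to P2_cap, between the 0.47 of replicate 2 and the 0.70 of replicate 3.

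The genes described next have the smallest adjusted p of this difference, among those that separated in both tissues in opposite directions. Opposite changes were thus required by the rule that chose them. With a highest group mean of at least 20 CPM, 300 positive and 684 negative differences met this rule. Over all called differences the balance ran the other way, with 2195 positive and 1508 negative. Lenti6_1_570214 had 84.4, 85.9 and 69.4 CPM in FB_cap replicates 1, 2 and 3, against 20.3, 12.3 and 17.1 CPM in YFB_cap replicates 1, 2 and 3. In the stipe it had 13.5, 13.9 and 17.7 CPM in FB_stipe replicates 2, 3 and 4, against 38.2, 39.4 and 62.4 CPM in YFB_stipe replicates 1, 2 and 3. The cap rose where the stipe fell, and the changes differed by 3.90 ± 0.42 in log2 (SE, edgeR adjusted p = 3.87e-05). Lenti6_1_513553 averaged 11.9 ± 2.44 CPM in FB_cap and 5.36 ± 1.68 CPM in YFB_cap, but 6.26 ± 1.54 CPM in FB_stipe and 24.4 ± 5.35 CPM in YFB_stipe (SD, n = 3 each).

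In the other direction, Lenti6_1_498187 had 122, 96.4 and 111 CPM in FB_cap replicates 1, 2 and 3, against 237, 318 and 371 CPM in YFB_cap replicates 1, 2 and 3. It had 153, 248 and 186 CPM in FB_stipe replicates 2, 3 and 4, against 39.6, 33.4 and 44.2 CPM in YFB_stipe replicates 1, 2 and 3. The young cap stood far above the young stipe, and at maturity every stipe library exceeded every cap library. The changes differed by -3.81 ± 0.41 in log2 (SE, edgeR adjusted p = 3.87e-05). Lenti6_1_515030 averaged 36.4 ± 2.49 CPM in FB_cap and 60.4 ± 7.59 CPM in YFB_cap, against 151 ± 35.6 CPM in FB_stipe and 44.2 ± 6.28 CPM in YFB_stipe (SD, n = 3 each). Its change in the cap, a log2 fold change of -0.73, was under 2-fold, while that in the stipe was 1.77, and they differed by -2.50 in log2. The difference was called for all 4 genes in each of 23 alternatives.

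**Figure D5:**
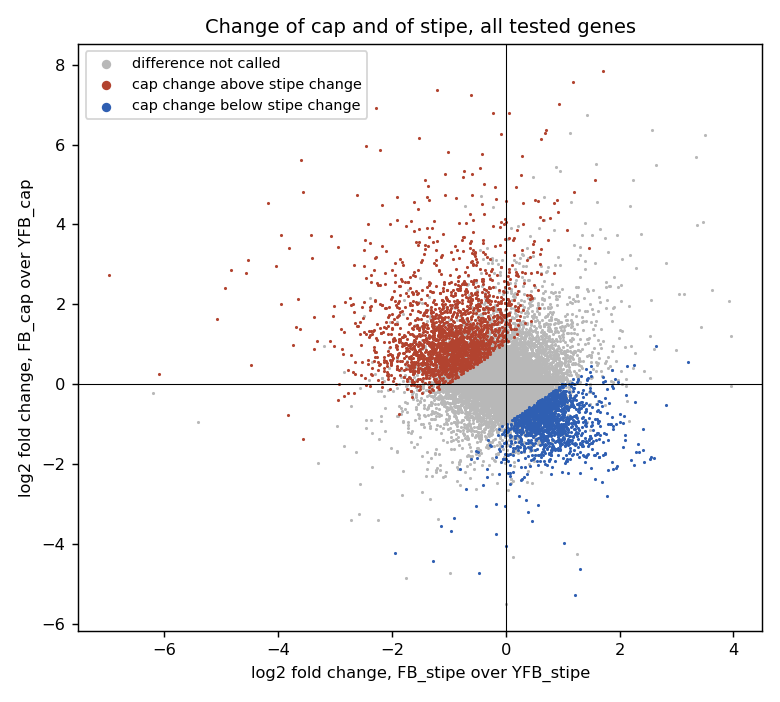
Log2 fold change of FB_cap over YFB_cap (vertical) against that of FB_stipe over YFB_stipe (horizontal) for 13569 genes, coloured where the difference of the changes was called. The 2195 positive differences lie towards the upper left and the 1508 negative ones towards the lower right. The 2 comparisons share no library, although they share flowcells.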

How the data were processed

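PolyA RNA went into TruSeq RNA v2 libraries (Illumina), per the labels' protocols. Strand is not given there. The authors deposited raw counts of total and of uniquely mapped reads per gene, gene length in bases and TPM, per the file headers, and a table of log2 RPKM values for 13805 genes with a further scaling factor per library. The submitters' processing notes name limma 3.18.13, edgeR 3.4.2 and R 3.0.2. The aligner is not given in the sources used here. Where genes overlap on both strands, their reads cannot be separated.

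Total counts of 13569 genes that passed edgeR's filterByExpr (minimum count 10, 2012 removed) were TMM-scaled and fitted with 9 group means over 27 libraries by quasi-likelihood in edgeR 4.0.16 under R 4.3.3. p-values are two-sided and Benjamini-Hochberg adjusted over all tested genes. Calls needed an adjusted p under 0.05 and at least 2-fold. SEs were derived from fold change and F. The shared spread is too small for FB_cap and too large for YFB_cap. Alternatives used DESeq2 1.42.0 and limma 3.58.1, among others. Code was tested on simulated data. No pair of cap libraries agreed within sampling noise (chi-square per degree of freedom 69.7 to 342). The table at hand (Lenti7_1, 15665 genes) matched 0 identifiers.

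Named genes followed a written rule: 2 per direction, by the gap between groups that do not overlap, at least 20 CPM and at least 90% unique reads, or for the difference between tissues by adjusted p. The comparison, lists and rules were chosen with earlier results of these data known.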

Additional observations from a re-analysis of the deposited data

Results flagged for a closer look

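The change from young to mature differed between cap and stipe in 3703 genes, by the test of the difference itself. Among the genes named for it, the difference was 3.90 for Lenti6_1_570214 and 3.12 for Lenti6_1_513553, and -3.81 for Lenti6_1_498187 and -2.50 for Lenti6_1_515030, in log2 of the cap change minus the stipe change. No group held more than 3 libraries, so single libraries were not screened for outlying values.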

How the results depend on the processing

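The counts are limited by 3 libraries a group, the spread of FB_cap and the lack of a flowcell with both groups. No scaling moved the median log2 fold change of all genes by over 0.1 (0.02 to 0.13 over all fits). The number of a replicate gave no sign of pairing between the cap libraries. Deviations from the group means of same-numbered FB_cap and YFB_cap libraries correlated at -0.139, -0.25 and -0.05. For libraries of different number the values ran from -0.234 to 0.351. With 3 libraries a group such values are tied to one another and cannot settle whether the numbers were paired. With the replicate number as a block, without FB_stipe replicate 4, 2091 genes were called in the cap and 2857 for the difference. In that fit 225 genes of the list higher in FB_lamellae than FB_stipe rose, and of the lists higher and lower in FB_stipe than YFB_stipe 29 fell (list median -0.05) and 71 rose.

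In the fit of the libraries compared, 566 genes were called (364 higher and 202 lower, past 4-fold 187 and 51). With flowcell as a covariate 347 were called (206 and 141, past 4-fold 116 and 46), and 1303 for the difference (641 and 662). Without the flowcell of FB_cap replicate 2, 1383 were called (923 and 460). Past 4-fold, 344 were higher with limma-voom and 347 with limma on the authors' log2 RPKM values, an alternative chosen after seeing the data. DESeq2, limma-voom without or with library weights, RLE scaling, no filter and unique reads left the total within 1.5 times.

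The counts of list genes in their main direction follow in the order VM (higher, lower than P1), P2_cap (higher, lower than P1), P2_cap (higher, lower than P2_stipe), FB_lamellae (higher, lower than FB_stipe) and FB_stipe (higher, lower than YFB_stipe). In the 6 cap libraries they were 106, 31, 67, 108, 54, 70, 100, 29, 14 and 28. With flowcell as a covariate they were 44, 28, 59, 87, 49, 62, 24, 10, 6 and 17. Without the flowcell of FB_cap replicate 2 they were 147 and 29 (VM, there 1 library assumed to vary like the other groups), 170 (FB_lamellae higher) and 53 (FB_stipe higher). With library weights, which lengthened these 4 lists, they were 252 (VM lower), 192 (P2_cap higher than P2_stipe), 151 and 262 (FB_stipe higher and lower). For FB_lamellae higher, limma-voom gave 204 and the authors' values 220. The median of genes lower in FB_lamellae than FB_stipe, 0.09, turned to -0.11 with library weights and to -0.03 without FB_cap replicate 3.

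Over the omission of single cap libraries, 1143 to 2589 genes were called, 702 to 1733 higher and 359 to 856 lower, and past 4-fold 333 to 711 higher and 65 to 175 lower. List counts, in the same order, ran from 189 to 445, 69 to 192, 148 to 240, 203 to 456, 88 to 116, 106 to 202, 167 to 508, 46 to 99, 38 to 121 and 71 to 242. With the omission of the flowcell of FB_cap replicate 2 included, list medians ran from 0.50 to 1.03 for VM higher, from -0.53 to -0.26 and from 0.68 to 0.81 for P2_cap higher and lower than P2_stipe, and from 0.30 to 0.96 and -0.03 to 0.20 for FB_lamellae higher and lower. Genes switched on numbered 0 to 1.

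The call of Lenti6_1_615061 was lost in the 6 cap libraries (-5.27) and with flowcell as a covariate (-3.94). For the library left out, FB_cap replicate 2 passed 4-fold from P2_cap in 25.1% of the genes called higher and 27.3% of those called lower, and passed 2-fold from P1 in place of P2_cap in 32.4% and 22.3%. From P1, replicate 1 passed 2-fold in 14.4% and 7.48% and replicate 3 in 19.7% and 5.47%. FB_cap replicate 3 passed 4-fold in 12.9% of genes called higher, and FB_cap replicate 1 passed 2-fold in 56.4% of genes called lower past 4-fold. The mean FB_cap position between P2_stipe and P2_cap was 0.42 over genes called past 4-fold, a setting also chosen after seeing the data. The causes were not tested.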
